A study of Mus musculus with 6 samples.

Results

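The MS4A family was read from the 9 genes of the deposited gene table whose symbols are Ms4a1, Ms4a2, Ms4a3, Ms4a4b, Ms4a4c, Ms4a6b, Ms4a6c, Ms4a6d and Ms4a7, out of 22475 genes in all. RNA-seq had been done on Lin- Sca1+ cKit+ cells, the fraction of mouse bone marrow that holds haematopoietic stem cells and early progenitors. In the KO-Flt3 group the mice were homozygous for FLT3-ITD, an activating internal duplication in the receptor kinase FLT3, and carried a homozygous deletion of miR-155. In the WT-Flt3 group they were homozygous for FLT3-ITD with wild type miR-155, so the duplication was common to both groups and no group had normal FLT3. Each group had 3 libraries, each of RNA combined across 3 mice, so p-values measure the spread between pools and not between animals. Ages and sexes of the mice were not given in the labels.

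MS4A proteins cross the cell membrane several times, with both ends inside the cell, and many of them sit beside a receptor and modify its signalling. Some are restricted to a blood cell lineage: Ms4a1 encodes CD20 of B cells, Ms4a2 the beta chain of the high-affinity IgE receptor of mast cells and basophils, Ms4a3 the protein HTm4 of early granulocyte and monocyte progenitors, and Ms4a7 a protein of macrophages. The other 5, Ms4a4b, Ms4a4c, Ms4a6b, Ms4a6c and Ms4a6d, were grouped as interferon-inducible. That grouping comes from background knowledge and was not tested here, since no sample received interferon.

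Library totals were 6843129, 7601317 and 7157206 counts in the KO-Flt3 libraries and 9443615, 8585695 and 8136914 in the WT-Flt3 libraries. Levels are given in CPM, the counts after division by the TMM-adjusted size of the library, where 3 counts were 0.325 to 0.459 CPM. The miR-155 host transcript Gm26667 had 0.612, 1.79 and 0.550 CPM in KO-Flt3 and 3.578, 5.5 and 4.389 CPM in WT-Flt3, or -2.14 ± 0.46 as log2 fold change and SE (edgeR adjusted p 0.274, and 0.0377 with the replicate number as a block). The gate genes Kit and Ly6a had log2 fold changes of -0.12 and 0.11. Cd34, which was not part of the gate, and the receptor gene Flt3 had -0.05 each, and none of these passed. Libraries with equal replicate numbers deviated together across genes (r = 0.57, 0.53 and 0.22), so each result is given with and without a block for that number where the call differs. Both libraries of number 1 stood apart from the others, with 902.8 CPM over the 17 measured macrophage genes in KO-Flt3 replicate 1 and 1184 CPM in WT-Flt3 replicate 1, against 226.1 to 360.6 CPM in the other 4 libraries.

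All 9 members lie within 391.2 kb of chromosome 19, from 11249675 to 11640851 (GRCm38, the assembly named mm10 elsewhere, annotated by GENCODE M21). This span was drawn from the outermost members and holds 14 coding genes. It does not hold every MS4A gene, since Ms4a8a, Ms4a10 and Ms4a15 lie outside it. From Ms4a1 at 11249675 to 11266241 the order of the members is Ms4a7 (11321039 to 11336146), Ms4a4c (11404770 to 11427246), Ms4a4b (11443553 to 11467055), Ms4a6c (11469366 to 11482192), Ms4a6b (11516512 to 11531256), Ms4a6d (11586604 to 11604849), Ms4a2 (11615523 to 11623719) and Ms4a3 (11629496 to 11640851). Ms4a4c, Ms4a4b, Ms4a6c and Ms4a6b lie on the plus strand, and the 4 lineage-restricted members and Ms4a6d on the minus strand. Within this span the interferon-inducible members thus lie in the middle, with the B cell and macrophage genes on 1 side and the mast cell and progenitor genes on the other.

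Several members are near copies, which bears on how reads could be counted. The aligned coding sequences of Ms4a4b and Ms4a4c were identical at 91.7% of bases, those of Ms4a6b and Ms4a6c at 86.4%, and those of Ms4a6d at 81.8% with Ms4a6b and 79.6% with Ms4a6c. Of all windows of 50 bases along the longest transcript, 8.48% of those in Ms4a4c, 6.08% in Ms4a6c, 5.89% in Ms4a6b, 4.19% in Ms4a4b, 2.92% in Ms4a6d and 2.69% in Ms4a2 also occurred in another member or family gene, and 0.0% in Ms4a1, Ms4a3 and Ms4a7. Most of each transcript can therefore be told apart from its relatives by a read of that length, but how shared reads were treated is not given in the sources used here. Ms4a6c has a further overlap: the noncoding transcript BE692007 on the opposite strand holds 55.41% of its windows, and without strand in the counting the reads of both would be added.

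The promoters of the near copies are printed so that their shared stretches can be set beside the expression values that follow. RefSeq promoters (GRCm38.p6, 250 bases before to 50 bases after the annotated start) matched 7 of the 9 members, with 8 promoters in all, Ms4a7 having a pair. Ms4a1 and Ms4a6d had no entry. Each is written 5′ to 3′ on the gene's own strand, with the longest stretch that the pair shares in capitals. The RefSeq starts of Ms4a6b and Ms4a4c lie inside the longer GENCODE spans of these genes.
Ms4a6c, chr19:11469118-11469417, plus strand: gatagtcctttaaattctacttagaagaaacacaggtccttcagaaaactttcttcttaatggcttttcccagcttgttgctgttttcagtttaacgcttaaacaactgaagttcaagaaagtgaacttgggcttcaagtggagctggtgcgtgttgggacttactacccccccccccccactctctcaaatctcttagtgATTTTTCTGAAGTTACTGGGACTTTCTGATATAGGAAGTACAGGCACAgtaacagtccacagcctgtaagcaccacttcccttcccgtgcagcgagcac
Ms4a6b, chr19:11518309-11518608, plus strand: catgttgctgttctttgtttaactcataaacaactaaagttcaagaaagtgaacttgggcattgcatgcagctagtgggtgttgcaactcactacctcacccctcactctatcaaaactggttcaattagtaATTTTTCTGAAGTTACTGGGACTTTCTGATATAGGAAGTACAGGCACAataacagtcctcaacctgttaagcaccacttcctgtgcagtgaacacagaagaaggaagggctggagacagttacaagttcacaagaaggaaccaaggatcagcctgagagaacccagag
Ms4a4c, chr19:11407411-11407710, plus strand: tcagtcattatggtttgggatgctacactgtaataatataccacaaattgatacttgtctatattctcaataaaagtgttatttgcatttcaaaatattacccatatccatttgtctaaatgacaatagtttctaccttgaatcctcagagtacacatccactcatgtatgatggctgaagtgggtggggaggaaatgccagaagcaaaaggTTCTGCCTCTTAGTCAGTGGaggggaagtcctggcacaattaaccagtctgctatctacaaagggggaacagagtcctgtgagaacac
Ms4a4b, chr19:11443308-11443607, plus strand: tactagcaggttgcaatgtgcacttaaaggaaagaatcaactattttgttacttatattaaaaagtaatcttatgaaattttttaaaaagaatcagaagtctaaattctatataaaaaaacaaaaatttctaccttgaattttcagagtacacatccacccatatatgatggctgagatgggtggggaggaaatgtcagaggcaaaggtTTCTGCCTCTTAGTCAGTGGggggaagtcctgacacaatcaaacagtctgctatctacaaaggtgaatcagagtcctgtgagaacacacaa

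The Ms4a6b and Ms4a6c promoters shared an exact run of 48 bases, which begins at position -118 relative to the start in Ms4a6b and at -49 in Ms4a6c. The promoters of Ms4a4b and Ms4a4c shared a run of 20 bases. Once aligned, they were identical at 76.7% of the full 300 bases, against 64.0% for the Ms4a6b and Ms4a6c promoters. For the other pairs of members with a promoter the longest run was 6 to 12 bases and identity 49.3% to 57.7%. The interferon-stimulated response element, read as GAAA, 2 bases of any kind and GAAA and searched like the others on both strands, was in 0 of the 8 promoters and in 3.443% of 32851 promoters of the same length. Its shortened form GAAANNGAA, chosen after the sequences were seen, was in 4 of the 8 (Ms4a6b, Ms4a6c and both of Ms4a7) and in 8.56% of all; every match to the longer form is also a match to this one. In Ms4a6b and Ms4a6c the match is the run gaaagtgaa, upstream of the capitals. The interferon-gamma-activated site TTCNNNGAA (8.298% of all promoters), the composite element of ETS and IRF factors, read as GGAA, 2 bases of any kind and GAAA (2.715%), the PU.1 core GAGGAAGT (3.202%) and the C/EBP motif TTGCGCAA (0.183%) were in 0 of the 8. The GATA motif AGATAAG (3.044%) was in 1, that of Ms4a2. These letters describe the windows and are not evidence that a factor binds there.

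The comparison between the groups asked which genes differ in FLT3-ITD progenitors when miR-155 is deleted. Ms4a4c, a membrane protein gene of haematopoietic cells, was the member with the largest fold change, at 96.4 ± 11.29 CPM in KO-Flt3 and 53.51 ± 16.66 CPM in WT-Flt3 (SD, n = 3 each). All 5 interferon-inducible members had a positive log2 fold change, with a median of 0.46 and a range of 0.10 to 0.85, and 3 of them, Ms4a4c, Ms4a6b and Ms4a6c, were higher in every pair of equal number. Of the 4 lineage-restricted members 1 had a positive fold change, with a median of -0.04 and a range of -0.57 to 0.05. Over all 13217 genes tested the median was 0.001 and 50.2% were positive. The difference between the medians of the 2 sets was not tested, since the members had been chosen with results of these data known.

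No member passed an adjusted p of 0.05 in the edgeR quasi-likelihood test on the group alone, 0 of 9, where 0.159% of all tested genes passed and 0.0151% as higher. At an unadjusted p under 0.05 there was 1 member, Ms4a4c, against 3.9% of tested genes, and limma-voom also called 0 (0.129% of tested genes). With the replicate block 2 members rose, Ms4a4c and Ms4a6c, and 0 fell, against 1.36% of tested genes in either direction and 0.318% higher. DESeq2 called Ms4a4c higher (adjusted p 0.0236) where it called 0.845% of 15498 genes and 0.0516% as higher. So did the authors' deposited table (log2 fold change 0.85, adjusted p 0.0330), in which 0.639% of 16577 genes had an adjusted p under 0.05, and 0.0422% were higher. All 9 members had passed the filter on low counts.

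**Figure D1:**
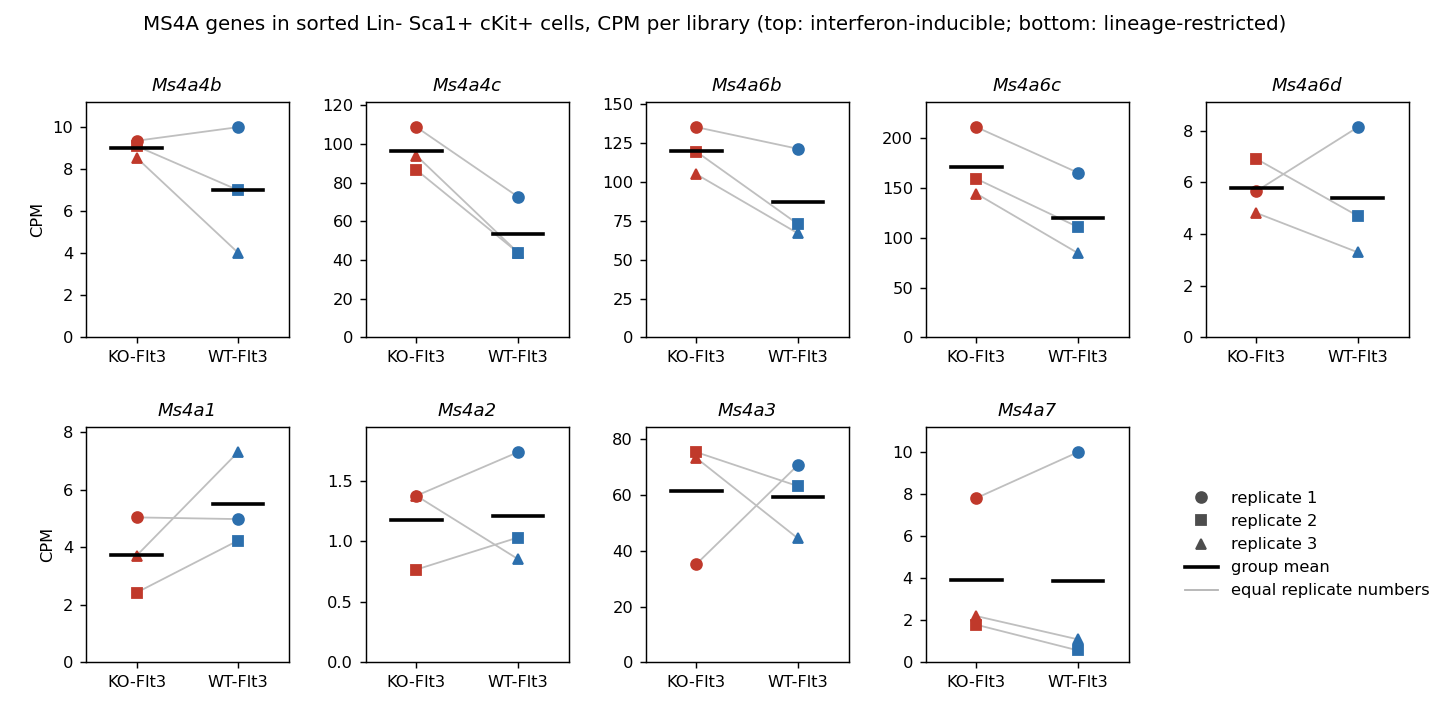
CPM of the 9 MS4A members in each library, KO-Flt3 on the left and WT-Flt3 on the right of each panel, with the interferon-inducible members above and the lineage-restricted members below. Symbols mark the replicate number, grey lines join equal numbers and black bars are group means; the groups do not overlap for Ms4a4c, at 86.55 to 108.7 CPM in KO-Flt3 and 43.89 to 72.74 CPM in WT-Flt3, and overlap for the other 8.

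Ms4a4c had 108.7, 86.55 and 93.93 CPM in KO-Flt3 replicates 1, 2 and 3, against 72.74, 43.89 and 43.89 CPM in WT-Flt3 replicates 1, 2 and 3. The lowest KO-Flt3 library lay above the highest WT-Flt3 library, and it was the only member of the 9 whose groups did not overlap, which was so for 8.22% of tested genes and for 3.43% in that direction. Its log2 fold change was 0.85 ± 0.21 (SE), or 1.80-fold, and the edgeR adjusted p on the group alone was 0.442. With the replicate block it rose by 0.88 ± 0.11 (edgeR adjusted p 0.0146), and the pairs of numbers 1, 2 and 3 differed by 0.58, 0.98 and 1.09 on the log2 scale. Without both libraries of number 1, where the macrophage genes were high, Ms4a4c rose by 1.04 ± 0.09 (SE, adjusted p 0.0188 in edgeR on the group alone). In the blocked fit its call was lost without both libraries of number 2 (adjusted p 0.139 in edgeR, 1 residual degree of freedom).

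Ms4a6c had 211.2, 159.3 and 144.4 CPM in the KO-Flt3 libraries, against 165.5, 110.9 and 84.73 CPM in the WT-Flt3 libraries. WT-Flt3 replicate 1 lay above KO-Flt3 replicates 2 and 3, so the groups overlapped, whereas within each number the KO-Flt3 library was the higher. The group means were 171.6 ± 35.06 CPM in KO-Flt3 and 120.4 ± 41.23 CPM in WT-Flt3 (SD, n = 3 each), which is 0.51 ± 0.25 as log2 fold change and SE (edgeR adjusted p 0.9996). With the block Ms4a6c rose by 0.54 ± 0.09 (adjusted p 0.0430 in edgeR), a call that did not hold in the blocked fit without both libraries of number 2 (adjusted p 0.383). Reads of Ms4a6c and of the overlapping BE692007 cannot be told apart here.

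Ms4a6b had 135.2, 119.4 and 104.9 CPM in KO-Flt3 and 121.3, 72.88 and 66.93 CPM in WT-Flt3. As for Ms4a6c, WT-Flt3 replicate 1 reached into the KO-Flt3 range while each pair of equal number was higher in KO-Flt3. The log2 fold change was 0.46 ± 0.23 (SE) and, with the block, 0.50 ± 0.11, with adjusted p of 0.9996 and 0.146 in edgeR. It passed in the blocked fit without both libraries of number 1 (0.68 ± 0.08, adjusted p 0.00386 in edgeR) and in the blocked fit without a filter on low counts (adjusted p 0.0115).

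Ms4a4b, described in mouse T cells as a partner of the receptor GITR, had 9.328, 9.077 and 8.527 CPM in KO-Flt3 and 9.974, 6.99 and 4.023 CPM in WT-Flt3. The KO-Flt3 libraries lay close together, inside the wider range of the WT-Flt3 libraries. Its log2 fold change was 0.35 ± 0.32 (SE, adjusted p 0.9996 in edgeR, and 0.669 with the block). The 15 measured T cell genes summed to 79.36, 77.09 and 69.04 CPM in KO-Flt3 and 104.4, 89.84 and 95.21 CPM in WT-Flt3. Each KO-Flt3 sum lay below each WT-Flt3 sum. A positive fold change was seen in 3 of the 13 tested genes, against 50.2% of all tested genes. These were Cd8a (0.69), Cd8b1 (0.32) and Il7r (0.05), and none of them passed with or without the block. Among the 13 the costimulatory receptor gene Cd28 fell by 1.14 on the log2 scale with the block (adjusted p 0.0153 in edgeR). It did not pass without the block (adjusted p 0.346). The part of T cell RNA in the Ms4a4b values was not tested.

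Ms4a6d, described in mouse macrophages as a partner of the receptor VSIG4, had 5.658, 6.903 and 4.813 CPM in KO-Flt3 and 8.131, 4.698 and 3.291 CPM in WT-Flt3. The WT-Flt3 values enclosed all KO-Flt3 values, and the log2 fold change was 0.10 ± 0.35 (SE, adjusted p 0.9996).

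**Figure D2:**
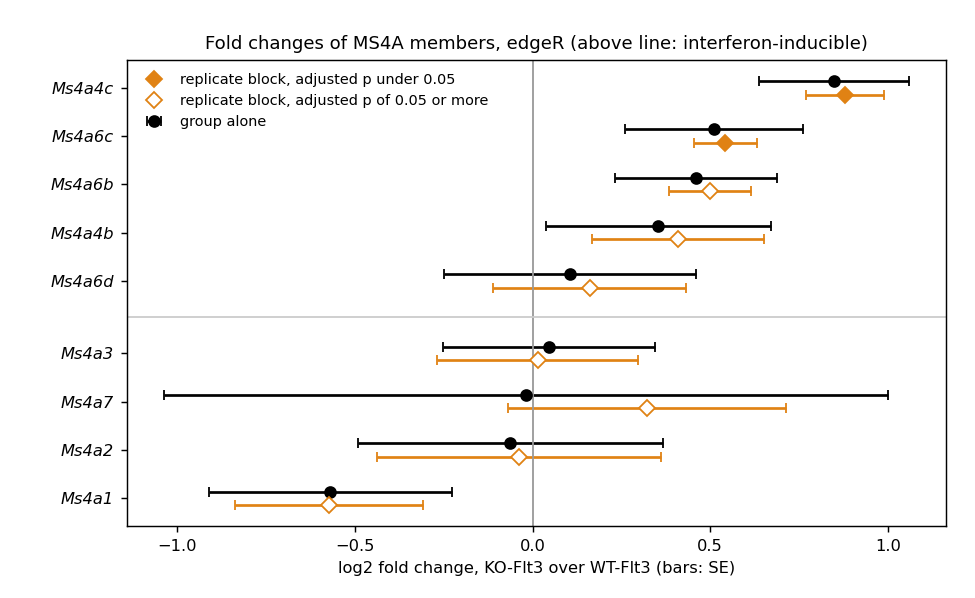
Log2 fold change of each member, KO-Flt3 over WT-Flt3, with its SE, from edgeR on the group alone (black) and with the replicate block (orange, filled where the adjusted p is under 0.05). Ms4a4c and Ms4a6c are filled, all 5 interferon-inducible members lie right of 0, and Ms4a7 has the widest error (SE 1.02 on the group alone and 0.39 with the block).

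Ratios of counts between members overlapped between the groups. Ms4a4c had 11.66, 9.535 and 11.02 counts per Ms4a4b count in the KO-Flt3 libraries, against 7.293, 6.279 and 10.91 in the WT-Flt3 libraries. The WT-Flt3 replicate 3 ratio lay between those of KO-Flt3, and the exact two-sided permutation test gave p = 0.2 (0.3 adjusted over 3 ratios, smallest possible p 0.1). Ms4a6c had 1.562, 1.334 and 1.376 counts per Ms4a6b count in KO-Flt3 and 1.365, 1.522 and 1.266 in WT-Flt3 (exact permutation p = 0.6), with ranges that overlap. Ms4a4c per Ms4a6c count was 0.5148, 0.5433 and 0.6505 in KO-Flt3 and 0.4394, 0.3957 and 0.518 in WT-Flt3 (exact permutation p = 0.2, adjusted 0.3). This test does not use the replicate numbers. Within numbers 1, 2 and 3, KO-Flt3 minus WT-Flt3 on the log2 scale was 0.23, 0.46 and 0.33 for Ms4a4c per Ms4a6c, 0.68, 0.60 and 0.01 for Ms4a4c per Ms4a4b, and 0.20, -0.19 and 0.12 for Ms4a6c per Ms4a6b, so the Ms4a4c ratios were higher in KO-Flt3 in 3 of 3 pairs.

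Ms4a1, the CD20 gene, had 5.046, 2.429 and 3.713 CPM in KO-Flt3 and 4.987, 4.24 and 7.314 CPM in WT-Flt3, or 79 counts in all against 143. KO-Flt3 replicates 2 and 3 lay below every WT-Flt3 library and KO-Flt3 replicate 1 did not. Its log2 fold change was -0.57 ± 0.34 (SE, adjusted p 0.9996 in edgeR, and -0.57 ± 0.26 with 0.569 under the block). The 14 measured B cell genes summed to 171.7, 159.8 and 160.9 CPM in KO-Flt3 and 189, 182.4 and 208.5 CPM in WT-Flt3, and 2 of the 8 tested had a positive fold change. Among them Fcrla, a B cell Fc receptor-like gene, fell by 0.69 ± 0.12 on the log2 scale with the block (SE, adjusted p 0.0463 in edgeR), and did not pass without it (adjusted p 0.9996). The B cell transcription factor gene Pax5 had 1 count over all 6 libraries. The part of these few B cell transcripts in the Ms4a1 values was not tested, and in bulk RNA fewer cells of a type cannot be told apart from less RNA per cell.

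Ms4a2, the IgE receptor beta chain gene, was near the lower limit of the data, with 9, 6 and 10 counts in KO-Flt3 and 16, 9 and 7 in WT-Flt3. These are 1.376, 0.767 and 1.375 CPM in KO-Flt3 and 1.735, 1.031 and 0.8533 CPM in WT-Flt3, with groups that overlap. The sums of 25 counts in KO-Flt3 (95% Poisson interval 16.18 to 36.9) and 32 in WT-Flt3 (21.89 to 45.17) have intervals that overlap widely, counting error only. The other chains of the receptor were the alpha chain gene Fcer1a, with 22 counts over all libraries and not tested, and the gamma chain gene Fcer1g, which other receptors share. The 11 measured mast cell and basophil genes summed to 53.98, 96.01 and 92.28 CPM in KO-Flt3 and 83.48, 99.69 and 88.75 CPM in WT-Flt3, and 0 of the 8 tested passed with or without the block. Fcer1g had 89.0, 49.47 and 60.1 CPM in KO-Flt3 and 63.42, 37.81 and 43.4 CPM in WT-Flt3, 0.45 ± 0.26 as log2 fold change and SE (edgeR adjusted p 0.9996), and it rose with the block (0.45 ± 0.07, adjusted p 0.0430).

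Ms4a3, the HTm4 gene, had 35.32, 75.42 and 73.3 CPM in KO-Flt3 and 70.79, 63.25 and 44.5 CPM in WT-Flt3. KO-Flt3 replicate 1 was the lowest of the 6 and KO-Flt3 replicates 2 and 3 the highest, so the pairs pointed in different directions. The group means of 61.35 ± 22.56 CPM in KO-Flt3 and 59.51 ± 13.54 CPM in WT-Flt3 (SD, n = 3 each) differed by less than the spread, and the log2 fold change was 0.05 ± 0.30 (SE, edgeR adjusted p 0.9996). The 15 tested granulocyte and monocyte progenitor genes had a median, after each gene was centred on its mean of 6 libraries, of -0.28, 0.14 and 0.21 in KO-Flt3 and 0.27, -0.07 and -0.28 in WT-Flt3 on the log2 scale, and 0 of them passed with or without the block. Human HTm4 binds a phosphatase whose mouse gene, Cdkn3, had a log2 fold change of 0.12. Cdk2, the gene of the kinase on which that phosphatase acts, had 0.06, and neither passed.

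Ms4a7, the macrophage member, differed between replicate numbers rather than between groups. It had 7.799, 1.79 and 2.2 CPM in KO-Flt3 and 9.974, 0.573 and 1.097 CPM in WT-Flt3, so that replicate 1 was the highest of each group by a wide margin. The log2 fold change was -0.02 ± 1.02 (SE, adjusted p 0.9996 in edgeR), 0.32 ± 0.39 with the block (adjusted p 0.859), 2.20 without WT-Flt3 replicate 1 and 1.25 without both libraries of number 1. The summed macrophage genes were also highest in both libraries of number 1, with 902.8, 292.6 and 360.6 CPM in KO-Flt3 and 1184, 226.1 and 262.7 CPM in WT-Flt3 over the 17 measured. The complement gene C1qa had 39.76, 3.452 and 8.251 CPM in KO-Flt3 and 68.84, 3.781 and 6.461 CPM in WT-Flt3. Whether macrophage RNA sets the Ms4a7 values was not tested.

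**Figure D3:**
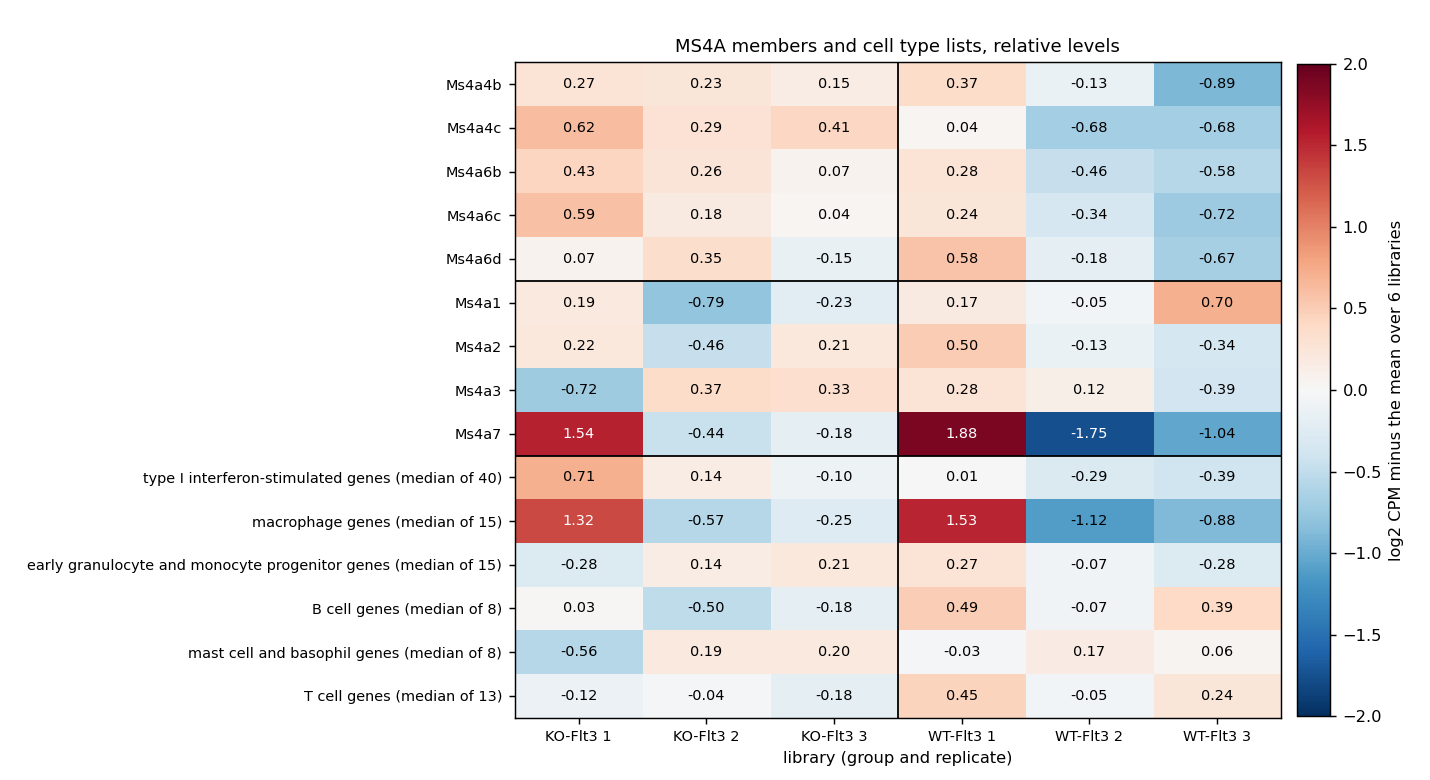
Relative level (log2 CPM minus the mean over the 6 libraries) of each member and the median of each gene list, with the KO-Flt3 libraries left and the WT-Flt3 libraries right of the black line. Ms4a7 and the macrophage genes are high in both libraries of number 1 (1.54 and 1.88 for Ms4a7, 1.32 and 1.53 for the list, in KO-Flt3 and WT-Flt3). Ms4a4b, Ms4a4c, Ms4a6b and Ms4a6c are above their means in all 3 KO-Flt3 libraries and also in WT-Flt3 replicate 1.

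Levels of different members can be compared per length, in the FPKM that the authors deposited. The order by group mean was the same in both groups, with Ms4a6c first (92.63 ± 15.29 FPKM in KO-Flt3 and 65.05 ± 20.96 in WT-Flt3, SD, n = 3 each). Ms4a3 was second, at 61.21 ± 24.18 FPKM in KO-Flt3 and 58.73 ± 12.7 in WT-Flt3, and Ms4a4c came next, at 54.9 ± 4.25 in KO-Flt3 and 30.44 ± 8.78 in WT-Flt3. Ms4a6b followed at 26.66 ± 2.60 FPKM in KO-Flt3 and 19.33 ± 6.19 in WT-Flt3. The other members were far lower, at 3.34 FPKM in KO-Flt3 and 3.08 in WT-Flt3 for Ms4a6d, 1.80 and 2.68 for Ms4a1, 1.70 and 1.32 for Ms4a4b, 0.883 and 0.908 for Ms4a2, and 0.863 and 0.856 for Ms4a7. Neighbours in this order whose ranges over the libraries overlapped were Ms4a3 and Ms4a4c, Ms4a1 and Ms4a4b, and Ms4a2 and Ms4a7 in KO-Flt3. In WT-Flt3 they were Ms4a6c and Ms4a3, Ms4a4c and Ms4a6b, Ms4a6d and Ms4a1, Ms4a4b and Ms4a2, and Ms4a2 and Ms4a7. A progenitor gene and 3 interferon-inducible genes were thus the abundant members in these sorted cells, and near copies differed widely in level, Ms4a4c far above Ms4a4b and Ms4a6c far above Ms4a6d.

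**Figure D4:**
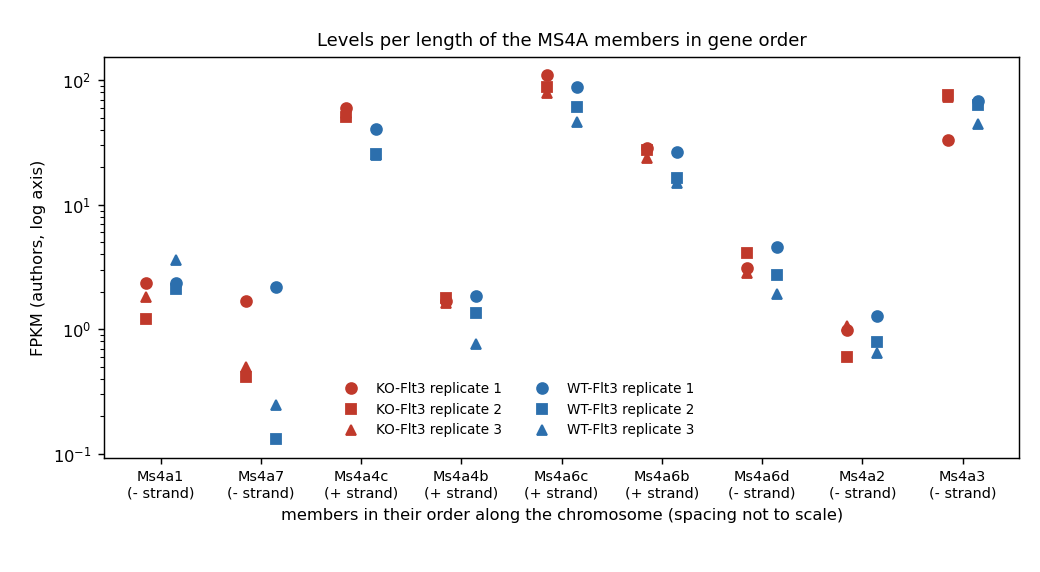
Deposited FPKM of each member in each library (log axis), in the order of the genes along the chromosome, KO-Flt3 left of WT-Flt3 within each gene. Ms4a6c is the highest by mean in both groups (92.63 FPKM in KO-Flt3 and 65.05 in WT-Flt3), and Ms4a7 spreads most, over 0.4136 to 1.674 FPKM in KO-Flt3 and 0.1308 to 2.188 in WT-Flt3.

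The interferon-inducible members shared their order of libraries in part. After each gene was centred on its mean of 6 libraries, their median was 0.43, 0.26 and 0.07 in KO-Flt3 replicates 1, 2 and 3 and 0.28, -0.34 and -0.68 in WT-Flt3 replicates 1, 2 and 3 on the log2 scale. Replicate 1 was the highest and replicate 3 the lowest library of both groups, and WT-Flt3 replicate 1 lay above KO-Flt3 replicates 2 and 3. A list of 40 type I interferon-stimulated genes that holds no MS4A gene had medians of 0.71, 0.14 and -0.10 in KO-Flt3 and 0.01, -0.29 and -0.39 in WT-Flt3. Of these 40, 39 had a positive fold change, the median was 0.48, 0 passed on the group alone and 14 rose with the block. Of all tested genes 50.2% were positive, 0.159% passed on the group alone and 0.318% rose with the block. The list was chosen with earlier results of these data known. KO-Flt3 replicate 1 also stood out in the 14 measured dendritic cell genes, which summed to 13510, 6644 and 5147 CPM in KO-Flt3 and 7344, 6141 and 6742 CPM in WT-Flt3. Of the 12 that were tested 0 passed on the group alone and 1 rose with the block. That gene, Bst2, is an antiviral membrane protein gene that is also among the 14 of the interferon list (adjusted p 0.0475 in edgeR with the block and 0.9996 without it). Of the 12, 9 had a positive fold change on the group alone, and the median log2 fold change was 0.275. Only Siglech, Ccr9 and Flt3 had negative log2 fold changes (-0.24, -0.05 and -0.05). The part of such cells in the members' values was not tested. The lineage-restricted members had medians of 0.20, -0.45 and 0.02 in KO-Flt3 and 0.39, -0.09 and -0.37 in WT-Flt3.

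The genes most like each member were taken as those with the smallest root mean square difference from it in centred log2 CPM over the 6 libraries, among 12519 genes with a mean log2 CPM of at least 1. Ms4a6b and Ms4a6c were among the nearest 3 of each other (0.106), the only members of which this was so. For Ms4a6b the transcription factor gene Cebpd (0.065) and Gpr141 (0.105) came before, and Gpr141 rose with the block (log2 fold change 0.51 on the group alone, adjusted p 0.883 in edgeR, and 0.0228 with the block). For Ms4a6c, Rwdd2a (0.110) and the interferon-stimulated gene Isg15 (0.112) came after. Ms4a4c was nearest to the phosphodiesterase gene Pde7b (0.104), Gm14548 (0.108) and Nup210l (0.161), whose log2 fold changes of 1.02, 0.76 and 0.75 did not pass with or without the block.

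For the lineage-restricted members the nearest genes were Slc35d3 (0.148), Gm12992 (0.159) and the B cell gene Fcrla (0.177) for Ms4a1, and Clec5a (0.102), Cldn15 (0.118) and Tfec (0.124) for Ms4a3. Gm5903 (0.117), Pelo (0.120) and Gpr183 (0.128) were nearest to Ms4a2. Ms4a7 was nearest to the macrophage genes Axl (0.238), Mrc1 (0.271) and C1qc (0.423), and its distance to every other member was at least 1.011. Ms4a4b was nearest to Rpl5-ps2 (0.125), C1galt1c1 (0.130) and Gm12207 (0.142), and Ms4a6d to Hs3st3b1 (0.144), a gene with no symbol (0.147) and Gm2223 (0.151). With 6 libraries such likeness is a description of these libraries.

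Of 16 further family genes looked for, 6 were in the table and 2 were tested. These were Tmem176a (log2 fold change -0.32 ± 0.16, SE) and Tmem176b (-0.18 ± 0.14), relatives of the MS4A proteins encoded elsewhere, and neither passed (adjusted p 0.9996 each in edgeR, and 0.149 and 0.439 with the block). Over all 6 libraries Ms4a8a had 36 counts, Ms4a4d 10, and Ms4a10 and Ms4a15 1 each. Not every gene beside the abundant members was read often: Ms4a4d, next to Ms4a6b, had 1, 2 and 1 counts in KO-Flt3 and 1, 5 and 0 in WT-Flt3. Gm8369, which lies between Ms4a6c and Ms4a6b and was named after its values were seen, had 7, 6 and 7 counts in KO-Flt3 and 8, 11 and 9 in WT-Flt3.

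Of 10 genes for proteins that MS4A members are known to bind or act through, 8 were tested. On the group alone 0 passed, and 1 rose with the block, Fcer1g as given above. Over all tested genes 0.159% passed on the group alone and 0.318% rose with the block. A positive fold change was seen in 6 of the 8, against 50.2% of all tested genes. Cd40, a receptor that CD20 associates with in human B cells, had 31.65, 19.69 and 15.27 CPM in KO-Flt3 and 17.78, 13.06 and 11.95 CPM in WT-Flt3. Its groups overlapped and its log2 fold change of 0.63 ± 0.29 did not pass (adjusted p 0.9996 in edgeR, 0.130 with the block). The kinase genes Lyn and Syk, which signal below the IgE receptor, had log2 fold changes of 0.18 and -0.05. Tnfrsf18, which encodes GITR, had -0.09, and Clec7a, which encodes the beta-glucan receptor Dectin-1, 0.21, and none of these passed. Vsig4 had 1 count in all.

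The deleted microRNA reads targets through its seed. Mature miR-155-5p (RefSeq, GRCm38.p6, chr16:84714143-84714165, plus strand) is shown with bases 2 to 8 in capitals, as the sequence whose complement was searched in the members' 3′ UTRs.
miR-155-5p: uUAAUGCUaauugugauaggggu
Its 7-base match AGCATTA was present in the 3′ UTR of 1 member, Ms4a1, and the 8-base match AGCATTAA in 0, where 9.4% and 3.4% of 11723 tested genes with an annotated UTR had them. The 6-base core GCATTA was present 2 times in Ms4a1 and 1 time in Ms4a4b, there followed by an A, and in 0 of the other 7 members (21.8% of tested genes had it). The first core in Ms4a1 and the core in Ms4a4b are shown in context, with the 6 bases in capitals. The second core in Ms4a1 is not shown.
Ms4a1 site: ttttctaaGCATTAttgtttag
Ms4a4b site: tagatcctGCATTAatttggca
Ms4a1 had a log2 fold change of -0.57 and Ms4a4b of 0.35, neither past the threshold, and Ms4a4c and Ms4a6c, which rose with the block, held no such match.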

How the data were processed

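Per the labels, total RNA of sorted Lin- Sca1+ cKit+ cells was isolated with the Qiagen miRNeasy kit and libraries were made with an NEB Illumina protocol. The authors deposited, per gene and library, whole-number counts that had not been normalised and FPKM, which were the counts times 1 factor per gene and 1 per library (spread of 0.0% between libraries). They also deposited a log2 fold change and an adjusted p-value of their own comparison. The submitters' processing notes name the mm10 build, Novoalign 2.08.01 and DESeq2 1.10.1. The sources used here do not give the read counter, its annotation or its strand setting.

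The test was that of edgeR 4.0.16 in R 4.3.3 (TMM, filterByExpr with a minimum count of 10 and a minimum total of 15, two-sided quasi-likelihood F test, group as the only term). The p-values were adjusted by the Benjamini-Hochberg method over the 13217 genes left of 22475, with a threshold of 0.05. SEs were derived from the F statistic. Log2 CPM used a prior count of 2, and ratios of counts were tested by exact permutation in scipy 1.17.1. The fit was also run on simulated counts with known changes. These held no effect of the replicate number, so they cannot show how the block performs on these libraries. Intervals on counts are exact Poisson at 95% and cover counting error only. Within a group, libraries differed beyond sampling noise (chi-square per degree of freedom 7.29 or more), and Spearman correlations between libraries were 0.965 to 0.99.

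Both groups carry replicate numbers 1 to 3 in their titles, with no statement of what a number marks. Deviations from the group means correlated by r = 0.57, 0.53 and 0.22 between equal numbers, all above the limit of 0.1 for treating them as pairs. For unequal numbers r was -0.51 to 0.04, except 0.13 for KO-Flt3 replicate 2 with WT-Flt3 replicate 3. The pairing therefore rests on the data. Residual degrees of freedom were 2 in the blocked fit and 4 in the other.

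Positions, coding sequences and 3′ UTRs came from GENCODE M21, which 21966 gene identifiers matched. Named genes are the 9 members, the 3 genes most like each, family genes and partners past the threshold with up to 6 others, gate and genotype genes and up to 4 genes of each cell type list, unless said otherwise. The members and all lists were chosen with earlier results of these data known. DESeq2 1.42.0, limma-voom (limma 3.58.1), other size factors, other filters and leaving out libraries were tried as alternatives. A gene of the B cell list is not reported here.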

Additional observations from a re-analysis of the deposited data

How the results depend on the processing

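Of 168 fold changes of the members under 19 alternatives, 130 kept their direction and side of the threshold, 12 newly passed and 26 changed sign, and 18 of 18 mean levels moved by less than 1 SD between replicates under plain library totals. The 26 belong to members that passed nowhere, and their cause was not tested. For Ms4a7 they were 0.009 with DESeq2, 0.64 with limma-voom, 0.32 with the replicate block (also without a low-count filter), 1.26, 0.062 and 0.046 with the block without both libraries of number 1, 2 or 3, and 1.25 without both of number 1; leaving out 1 library gave -0.97 to 2.20. For Ms4a3 they were -0.13 and -0.33 with the block without number 2 or 3, and -0.093 and -0.27 without these numbers and without the block (leaving out 1 library, -0.14 to 0.33). For Ms4a6d they were -0.045 with the block without number 2, and -0.14 and -0.025 without number 2 or 3 (leaving out 1 library, -0.14 to 0.54). For Ms4a2 they were 0.11 with the block and 0.069 without it, each without number 2 (leaving out 1 library, -0.25 to 0.17). The other members kept their sign when 1 library was left out: Ms4a4c 0.72 to 1.14, Ms4a6c 0.32 to 0.81, Ms4a6b 0.31 to 0.78, Ms4a4b 0.09 to 0.70 and Ms4a1 -0.84 to -0.31.

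The count of 0 members called became 2 higher with the replicate block, 3 with the block and no low-count filter, 3 and 2 with the block without number 1 or 3, and 1 with DESeq2 and without both of number 1. It stayed at 0 when 1 library was left out. With the block, every library and the low-count filter, the members called were Ms4a4c and Ms4a6c alone. The third member called with the block was Ms4a6b, without the filter or without number 1 (adjusted p 0.0115 and 0.00386 in edgeR). Over all genes, 21 called (2 higher, 19 lower) became 180 (42, 138) with the block, 365 (116, 249) with the block and no low-count filter, and 205 (52, 153), 98 (4, 94) and 471 (236, 235) with the block without number 1, 2 or 3. It became 131 (8, 123) with DESeq2, 97 (4, 93) without the filter, 32 (3, 29) at a threshold of 0.1, 10 (0, 10) without number 2 and 6 (0, 6) without number 3. Without number 1 there were 4 higher. Leaving out 1 library gave 0 to 27 (0 to 3 higher, 0 to 24 lower). The median of the interferon-inducible members was 0.31 to 0.78 when 1 library was left out, the highest without WT-Flt3 replicate 1. That of the lineage-restricted members was -0.51 to 0.19, and 0.47 without both libraries of number 1 (0.48 with the block), where Ms4a2 had too few counts for the filter. The blocked fits without a filter or without a number were added after seeing the data. The lowest members, Ms4a2 with 6 to 16 counts a library and Ms4a7 with 5 to 92, limit what can be seen of them.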
